A study of Mus musculus with 21 samples.

Results

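The distal part of the gene desert upstream of Satb1 was profiled by 4C-seq (chromosome conformation capture with sequencing) from 4 viewpoints. The stretch runs from the viewpoint named -470 kb up to the potassium channel gene Kcnh8, at chr17:52410000-52739000 in mm9. It was taken by position alone, as all 330 steps of 1000 bp in this interval, of 1301 steps in each Satb1 profile and 14771 steps in the 21 libraries of the series. All 7 Satb1 libraries covered it. The Satb1 promoter was the viewpoint in thymus, embryonic stem (ES) cells and fetal brain, each cut with NlaIII and then DpnII. The -470 kb site was the viewpoint in thymus and ES cells (DpnII, then Csp6I). Viewpoints named +1.5 kb (NlaIII, Csp6I) and -6 kb (DpnII, Csp6I) were used in thymus only. The 4 thymus libraries came from adult C57BL/6 mice and the brain library from C57BL/6 embryos at 14.5 days post coitum. The ES cells were the IB10/E14 line. All were fixed with 2% formaldehyde for 10 minutes. Tissue differed together with age or cell line, so these cannot be told apart below. Each viewpoint and tissue had 1 library. Without replicates nothing was tested, and all comparisons below describe these libraries. The labels do not say whether the thymus libraries share an animal, and with no expression measured the tissue labels were not checked against markers.

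In 4C-seq, fixed chromatin is cut and ligated, so that fragments close to the viewpoint in the nucleus become joined to it and are counted. The signal falls with distance along the chromosome, and a local excess over that fall marks a preferred contact. Satb1 encodes a DNA-binding organizer of chromatin that developing T cells need, and genes of this kind often take regulatory input from far into a neighbouring gene desert. Kcnh8 encodes a voltage-gated potassium channel of the nervous system. In the RefSeq table of GRCm38.p6, 5 annotated genes lie between Satb1 and Kcnh8. Of these, 4 are long non-coding RNA genes (Gm20098, Gm19585, Gm41600 and Gm27217), 1 is the pseudogene Gm19197 and 0 are protein-coding. Gm27217 is the direct neighbour of Kcnh8. That build differs from mm9, so these genes were not placed on the 4C positions.

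A fragment can be seen only where the enzymes cut, so the cut sites at both ends of the desert are shown. The sequences are the 250 bases before the start of Kcnh8 and before the Satb1 start nearest to the desert, of 5 Satb1 starts listed, from RefSeq (GRCm38.p6). They are given on the strand of the gene, with DpnII (GATC), NlaIII (CATG) and Csp6I (GTAC) sites in capitals. The labels do not say which Satb1 start the viewpoint lies at.
Kcnh8: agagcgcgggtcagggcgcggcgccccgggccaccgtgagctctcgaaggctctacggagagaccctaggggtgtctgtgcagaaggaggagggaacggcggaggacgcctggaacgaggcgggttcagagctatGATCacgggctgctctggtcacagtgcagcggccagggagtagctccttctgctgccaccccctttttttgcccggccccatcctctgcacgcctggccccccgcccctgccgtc
Satb1: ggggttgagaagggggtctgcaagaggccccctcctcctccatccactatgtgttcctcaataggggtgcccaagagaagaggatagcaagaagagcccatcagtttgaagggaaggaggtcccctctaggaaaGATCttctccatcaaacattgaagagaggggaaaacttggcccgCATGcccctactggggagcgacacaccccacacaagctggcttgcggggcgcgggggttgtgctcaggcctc
The Kcnh8 window held 1 DpnII site and 0 sites of the other enzymes, and the Satb1 window held 1 DpnII and 1 NlaIII site. Each motif reads the same on both strands. Of 32851 promoter windows of this length, 41.9% held a DpnII site, 53.9% an NlaIII site and 31.5% a Csp6I site.

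Values are relative signal, the deposited 5 kb signal divided by the mean of its own library beyond 10 kb of the viewpoint. Sequencing depth is unknown. Empty positions made up 3.03% to 7.74% of the stretch in the 7 libraries. Several profiles were flat. In the promoter library of ES cells 60.6% of the positions of the stretch held the commonest value of that library, 0.103 times the mean, and such values have no order. To gauge technical spread, 1 fetal liver template that had been amplified at full amount and at 1/16, from the Hba-a1 promoter, was compared in 33 bins of 10 kb. The full minus diluted log2 difference ran from -2.17 to 0.74 with a median of -1.68 and an SD of 0.82, and 69.7% of bins were past 2-fold. A 2-fold difference between single libraries is therefore no larger than this pair showed, and 2.17 is used below as the larger yardstick.

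Seen from the Satb1 promoter, at a distance of 436 to 765 kb, the stretch held little of the signal. Mean relative signal was 0.439 for thymus, 0.107 for ES cells and 0.530 for brain. The thymus viewpoints beside the promoter gave 0.891 at +1.5 kb and 0.741 at -6 kb. The -470 kb site, which borders the stretch, gave 1.43 in thymus and 1.82 in ES cells. The order from lowest to highest was thus ES cells, thymus and brain from the promoter, then -6 kb, +1.5 kb and both -470 kb libraries. Without replicates no neighbours in this order can be told apart. The stretch made up 25.9% of the positions of the promoter-side libraries and took 11.4% of the signal in thymus, 2.77% in ES cells, 13.7% in brain, 23.1% at +1.5 kb and 19.2% at -6 kb. For the -470 kb site, 24.3% of positions took 34.6% of the signal in thymus and 44.1% in ES cells.

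Single positions departed from these means by very different amounts. In the promoter library of thymus the lowest, median and highest positions were 0, 0.230 and 5.28. They were 0, 0.103 and 1.48 in ES cells and 0, 0.534 and 1.56 in brain. The thymus profile was thus a flat floor with a few tall peaks, the ES profile nearly all floor, and the brain profile uneven up to the last stretch, where its median was 0.184, the commonest value of that library. At +1.5 kb the positions spanned 0, 0.180 and 8.59 and at -6 kb 0, 0.696 and 1.95, so the former had tall peaks over a low floor and the latter did not. Positions seen from the -470 kb site spanned 0, 0.804 and 9.72 in thymus and 0, 1.63 and 16.3 in ES cells, where the top position was the step at 52.41 Mb next to the positions left out around the viewpoint.

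**Figure D1:**
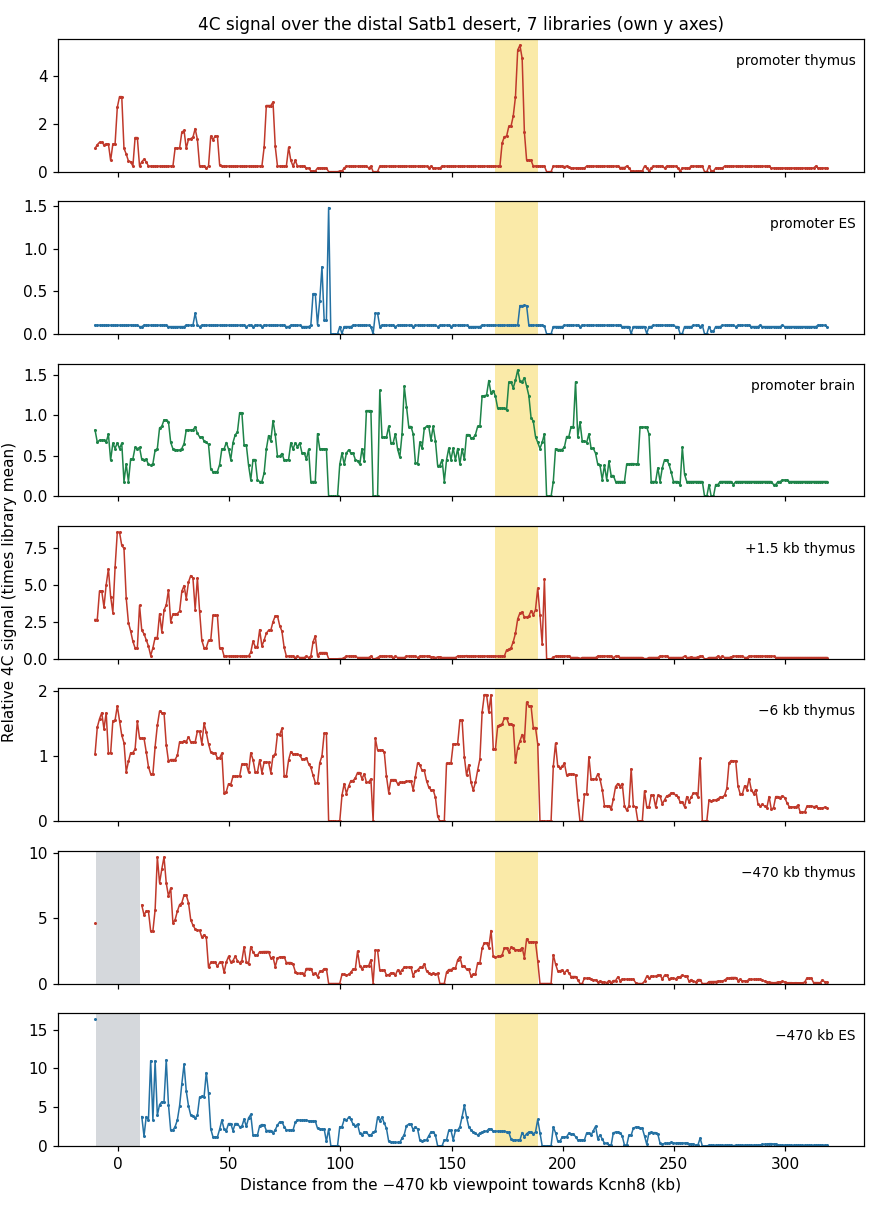
Relative 4C signal (times the library mean) against distance from the -470 kb viewpoint in kb, in 7 panels with their own y axes. Red is thymus, blue ES cells and green brain, the grey band marks positions left out near the viewpoint, and the yellow band is the shared site, where the promoter profile of thymus reaches 5.28.

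The signal was lowest next to Kcnh8 in all 7 libraries. In the stretch of 110 kb nearest the -470 kb site (52.41 to 52.519 Mb) the promoter stood at 0.677 for thymus, 0.127 for ES cells and 0.554 for brain. In the middle stretch (52.52 to 52.629 Mb) it stood at 0.462, 0.106 and 0.768. In the last (52.63 to 52.739 Mb) it stood at 0.178, 0.0884 and 0.267. Brain was thus highest in the middle, whereas the other 6 libraries were highest next to the -470 kb site. At +1.5 kb the 3 means were 2.03, 0.532 and 0.114, and at -6 kb 1.02, 0.836 and 0.364. The -470 kb site gave 2.95, 1.35 and 0.257 in thymus and 3.55, 1.67 and 0.536 in ES cells. The last stretch held 4.26% of the signal of the whole desert segment at +1.5 kb and 27.6% in the ES promoter library. Every value in the latter was at or below 0.103, its floor. Beyond the segment, on the Kcnh8 side, the means were lower still in 6 libraries, from 0.0530 to 0.171. In the ES promoter library that mean was 0.0885, level with the last stretch.

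**Figure D2:**
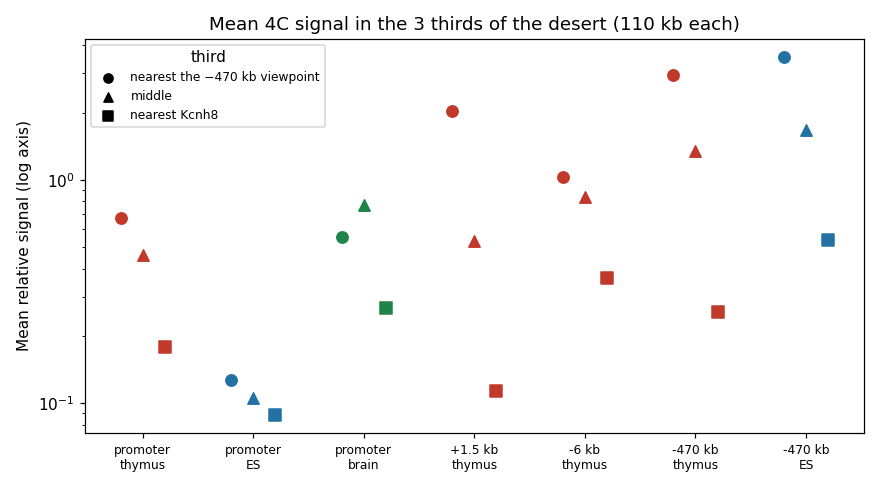
Mean relative signal on a log axis in 3 consecutive stretches of 110 kb, for 7 libraries coloured by tissue. The square, nearest Kcnh8, is lowest in every library, and the triangle is highest only in the brain library (0.768).

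Against the nearer desert, the segment was poor in signal from the promoter side. Between the viewpoint and 52.41 Mb the mean was 2.28 in thymus, 1.41 in ES cells, 1.35 in brain, 1.55 at +1.5 kb and 1.99 at -6 kb. Each is above the segment's own mean, and distance alone lowers 4C signal.

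The feature that most libraries shared was a site near 52.60 Mb. Observed over expected (O/E) divides the mean within 5 kb of a position by a falling curve fitted to that library's signal against distance, with a pseudocount of 10% of the library mean added to both. The promoter had its highest O/E of the segment at 52.598 Mb in thymus (5.13) and at 52.6 Mb in brain (2.05). The highest maximum was at 52.589 Mb from -6 kb (1.74) and at 52.604 Mb from -470 kb in thymus (1.92). At +1.5 kb the site at 52.607 Mb came second with 5.21. In the ES promoter library a maximum of 1.40 at 52.606 Mb lay where the signal was at the library's floor. The -470 kb library of ES cells had none there, and its nearest maximum was at 52.577 Mb with 1.97. So 6 of 7 libraries had a maximum within 10 kb of the interval described next. With smoothing windows of 10 and 20 kb it was 5, without the ES promoter library. That interval was drawn around these same maxima, so the count is a description and no support for a single site. The maxima were spread from 52.589 to 52.607 Mb. The -6 kb maximum lay within 10 kb of only 1 other, that of the promoter in thymus.

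The interval chr17:52590000-52609000 was set around these maxima after they were seen, so its height is a description. It lies 616 to 635 kb from the promoter viewpoint, placed at its highest signal, and 169.75 to 188.75 kb beyond the -470 kb viewpoint. From the promoter its 20 positions averaged 1.65 for thymus (lowest 0.230, median 1.33, highest 5.28), 0.149 for ES cells (0.103, 0.103, 0.334) and 1.20 for brain (0.667, 1.24, 1.56). The thymus and brain ranges overlapped, and the highest ES position lay below the lowest brain position. At +1.5 kb the average was 1.89 (0.180, 2.22, 4.80) and at -6 kb 1.42 (0.911, 1.47, 1.83). The -470 kb site gave 2.61 in thymus (1.76, 2.67, 3.43) and 1.59 in ES cells (0.751, 1.76, 3.41), with ranges that overlapped.

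The site stood out from its surroundings to different degrees. Set against the 40 kb to either side, which does not depend on how a library is scaled apart from the pseudocount, its log2 contrast from the promoter was 2.51 for thymus, 0.35 for ES cells and 0.86 for brain. It was 2.51 at +1.5 kb and 0.99 at -6 kb. The -470 kb site gave 1.50 in thymus and 0.15 in ES cells. In the latter library the site did not exceed its lower flank, at 1.59 against 1.81. The contrast of thymus exceeded that of ES cells by 2.16 and that of brain by 1.65 from the promoter, and that of ES cells by 1.35 from the -470 kb site. Over the other smoothing windows, flanks, pseudocount, O/E and empty positions left out, these differences ran from 1.73 to 2.51, from 0.96 (20 kb window) to 1.94 and from 1.11 to 1.43. Among thymus libraries the -6 kb contrast was below the promoter's by 1.52 (0.93 to 1.88 over the same settings), so libraries of 1 tissue differed by a similar amount. The interval was placed on the maxima, and its highest single position, 5.28, is in the promoter library of thymus. A technical yardstick therefore cannot judge these differences. In the template pair the same contrast differed by up to 1.45 over 127 overlapping windows, which were not placed on maxima. The -470 kb difference of 1.35 lies within that. The promoter differences of 2.16 and 1.65 were larger, but on a chosen interval that carries no weight. The deposited spread was wide. The lower and higher window values averaged 0.180 and 6.73 at the site in the promoter library of thymus and 0.426 and 2.65 in brain.

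**Figure D3:**
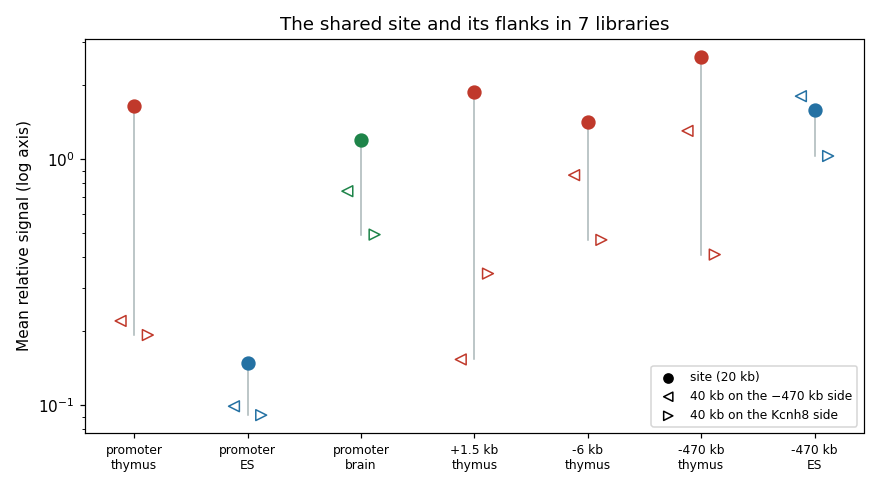
Mean relative signal on a log axis at the shared site of 20 kb (filled) and in the 40 kb on either side (open triangles) for 7 libraries, with grey lines down to the lower flank value. The site lies above both flanks in 6 libraries and between them in the -470 kb library of ES cells, where it is 1.59.

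Past the site the mean signal was below that of the site in all 7 libraries. Over the next 40 kb towards Kcnh8 the promoter mean was 0.193 for thymus, 0.0913 for ES cells and 0.495 for brain, with 0.343 at +1.5 kb and 0.471 at -6 kb. Seen from -470 kb it was 0.410 in thymus and 1.03 in ES cells. Positions 52.613 to 52.615 Mb were empty in all 7 libraries and belong to this flank. With empty positions left out the contrasts moved little, from 2.51 to 2.47 in the promoter library of thymus and from 1.50 to 1.31 in the -470 kb library of thymus.

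The -470 kb viewpoint was itself a target of the other viewpoints (chr17:52415250-52425250, 446.25 kb from the promoter viewpoint). Its 10 positions averaged 1.51 from the promoter in thymus (lowest 0.447, highest 3.13), 0.103 in ES cells, where all were at the floor, and 0.515 in brain (0.184 to 0.770). The +1.5 kb library had 5.87 there (2.46 to 8.59) and the -6 kb library 1.27 (0.759 to 1.77). Within the segment, 95.8% of positions averaged no more than this target in the promoter library of thymus, 99.4% at +1.5 kb, 89.7% at -6 kb and 50% in brain. O/E at the target was 5.65 at +1.5 kb and 1.20 at -6 kb. These 2 viewpoints were cut with different first enzymes.

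Further maxima, mostly but not only of thymus libraries, lay between the viewpoint and 52.50 Mb. Maxima at 52.452 Mb from +1.5 kb (O/E 4.25) and at 52.455 Mb from -6 kb (1.22) had a partner at 52.455 Mb in brain (1.20). A maximum at 52.443 Mb from -470 kb in thymus (1.51) lay within 10 kb of the +1.5 kb one. The promoter in thymus had a maximum at 52.492 Mb (2.14). Its signal at that position was only 0.230, the median of the segment in that library, and the peak lay beside it (2.91 at 52.49 Mb). No other library had 1 of its listed maxima within 10 kb, but the list stops at 3 per library. The +1.5 kb signal also peaked close by, at 2.91 at 52.492 Mb. The maximum of the promoter in thymus at 52.417 Mb (2.13) and the +1.5 kb maximum at 52.418 Mb (5.71) fall on the -470 kb viewpoint. Brain had a maximum at 52.627 Mb (1.30).

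ES cells had other maxima. In the promoter library the highest was at 52.51 Mb with O/E 2.21, carried by few positions up to 1.48 at 52.515 Mb, directly before an empty run at 52.516 to 52.519 Mb. The position 52.515 Mb was itself empty in the 5 libraries other than those of ES cells. A maximum at 52.541 Mb (1.09) was at the floor. Seen from -470 kb, maxima lay at 52.525 Mb (1.39) and 52.505 Mb (1.29) besides 52.577 Mb. The one at 52.505 Mb lies within 10 kb of the promoter's.

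Thymus and ES cells were compared from the promoter to see how contacts of the desert differ between thymus, whose T-cell precursors are known for high Satb1 expression, and another cell type. The log2 difference over the segment was 1.38 (means 0.439 and 0.107), with 0.1 added to each mean. Of 33 bins of 10 kb, 9 were higher in thymus by 2-fold or more and 1 was lower, against 20.3% and 18% of the 128 bins of the whole profile. The median bin difference was 0.67, beside 0.43 over the profile. The largest was 2.94 in the bin at 52.42 Mb, which holds the -470 kb viewpoint (1.46 against 0.103). The bin at 52.51 Mb was the exception, at -1.21 (0.0762 against 0.308). In 6 bins the difference was beyond 2.17. Most ES positions were at their floor, and with a pseudocount of 2% instead of 10% 18 bins were higher. Scaled to shared desert-side positions the segment difference was 0.83, under 2-fold, and with O/E, whose curve is fitted at these distances to the desert side alone, it was 0.06.

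Thymus and brain, which share the thymus library with the previous comparison, differed little, by -0.22 on the log2 scale (0.439 and 0.530). Of 33 bins, 2 were higher in thymus and 12 lower by 2-fold or more, against 9.38% and 32% of the profile. Those shares are close to the background. Of the 12 lower bins, 8 lay in the middle stretch. The extremes were 1.43 at 52.42 Mb (1.46 against 0.480) and -2.07 at 52.65 Mb (0.0718 against 0.621). None of the 33 bins was beyond 2.17. The 2 higher bins were not kept with windows of 10 or 20 kb, or when libraries were scaled to their shared desert-side positions.

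From the promoter, ES values were below those of brain in every bin, though almost level at 52.51 Mb. The log2 difference over the segment was -1.61 (0.107 and 0.530), and all 33 bins were below 0. Of these, 24 were lower by 2-fold or more and 0 higher, against 33.6% and 2.34% of the profile. The median bin difference was -1.63, beside -0.58 over the profile. The largest was -2.71 at 52.59 Mb, in the shared site (0.103 against 1.23), and the smallest -0.02 at 52.51 Mb (0.308 against 0.313). In 3 bins the difference was beyond 2.17, and with O/E 0 bins were lower by 2-fold and the segment difference was -0.04. Next to Kcnh8 brain was flat too, near its commonest value of 0.184 (0.184 against 0.0964 at 52.7 Mb). The sign there cannot be told apart from a difference in library scale. The part of the floors of both libraries in this difference was not tested.

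**Figure D4:**
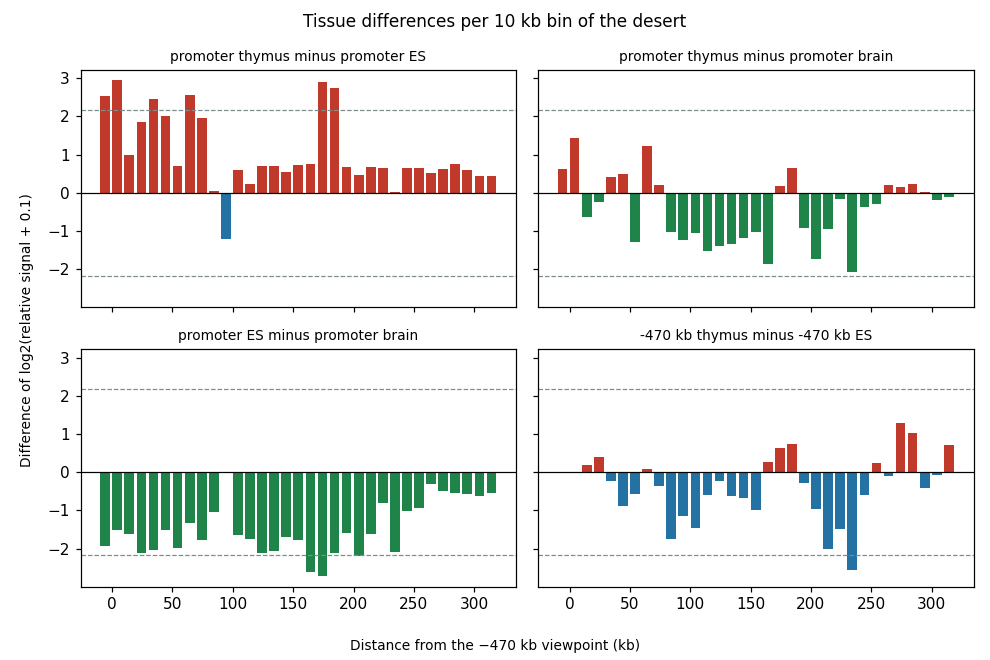
Difference of log2(relative signal + 0.1) per 10 kb bin against distance from the -470 kb viewpoint, for 4 tissue comparisons. Bars take the colour of the higher tissue (red thymus, blue ES cells, green brain) and dashed lines mark 2.17, the largest difference in the template pair, which 6 bins exceed in the first panel.

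Looking outward from -470 kb, thymus and ES cells had similar levels. The log2 difference over the segment was -0.33 (1.43 and 1.82). Of 31 bins with at least 5 positions, 2 were higher in thymus and 6 lower by 2-fold or more, against 14.1% and 11.7% of the profile. The 2 higher bins lay in the last stretch, the largest at 52.69 Mb with 1.28 (0.322 against 0.0739). In both, ES cells were below the commonest value of their library, 0.0932, and with O/E 0 bins were higher. The lowest was -2.55 at 52.65 Mb (0.219 against 1.77), the 1 bin beyond 2.17. Positions 52.654 to 52.656 Mb in that bin were empty in thymus and filled in ES cells. The -6 kb library of thymus was empty there as well, and the cause was not tested. The bin at 52.65 Mb was also the lowest of the segment in the promoter and +1.5 kb libraries of thymus. From the promoter, ES cells were as low there, at 0.0705 against 0.0718 in thymus.

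Distance profiles of the -470 kb site had different shapes. On the desert side the mean in thymus went from 4.72 at 10 to 50 kb to 1.43 at 50 to 100 kb and 1.02 at 100 to 150 kb, was 1.86 at 150 to 200 kb, where the shared site lies, and 0.353 at 200 to 250 kb. In ES cells it was 4.73, 2.34, 1.76, 1.65 and 1.20 over the same distances, with no such second high. From 250 to 319 kb it was 0.220 in thymus and 0.141 in ES cells, so the ES profile ended in a step. Towards Satb1 the thymus means were 2.95, 4.00, 2.14, 0.990, 1.09 and 0.893, and the ES means 6.23, 2.68, 1.46, 0.621, 0.769 and 0.606. Over 10 to 319 kb the desert side had 0.740 times the mean of the Satb1 side in thymus (1.42 and 1.91) and 0.963 times in ES cells (1.77 and 1.84). At 50 to 100 kb this ratio was 0.358 in thymus and 0.875 in ES cells, and at 150 to 200 kb it was 1.88 and 2.66.

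**Figure D5:**
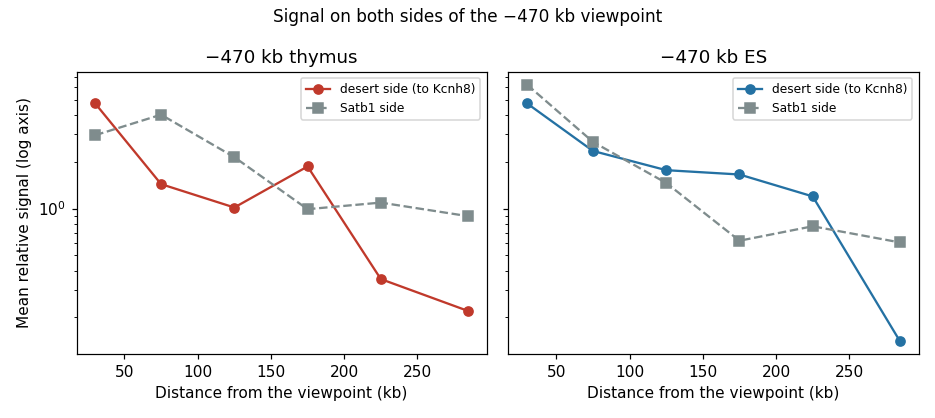
Mean relative signal on a log axis against distance from the -470 kb viewpoint, towards Kcnh8 (solid) and towards Satb1 (dashed), in thymus and ES cells. At 150 to 200 kb the desert side is above the Satb1 side in both (1.86 against 0.990 and 1.65 against 0.621), and at 250 to 319 kb below it.

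Among the thymus viewpoints near the promoter, enzymes and position differ together and cannot be told apart. The +1.5 kb library was above the promoter library by 0.88 on the log2 scale over the segment (0.891 and 0.439). The median bin difference was -0.29, however, and 21 of 33 bins were below 0, so the higher mean rests on a minority of bins. Of 33 bins 6 were higher by 2-fold or more and 1 lower, against 9.38% and 10.9% of the profile. Of the 6, 5 lay in the stretch next to the -470 kb site, with 2.28 at 52.44 Mb (3.29 against 0.598). The lower bin was at 52.59 Mb (-1.16), with 0.577 against 1.41. Without the positions within 30 kb of the -470 kb viewpoint the difference was 0.41. The -6 kb library was above the promoter library by 0.64 (0.741 and 0.439). Of 33 bins 13 were higher and 0 lower, against 24.4% and 3.15% of the profile. The largest was 2.10 at 52.58 Mb (1.31 against 0.230), directly before the shared site, and the lowest -0.37 at 52.6 Mb, within it (1.44 against 1.89).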

How the data were processed

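Mouse 4C-seq profiles of 7 Satb1 libraries were used, with 2 Hba-a1 promoter libraries of fetal liver as a technical pair. Per the file names and the values deposited, the authors had normalized the signal and smoothed it over 48 running windows of 2 to 49 kb, giving a middle, a higher and a lower value every 1000 bp. Coordinates are mm9, per the submitters' processing notes. Aligner and filters: not given in the sources used here. Depth is unknown. Windows of 5 kb were main. Viewpoints were placed at the highest signal, except the -470 kb viewpoint, whose position came with the interval. Placed so, the -470 kb viewpoint lies 446.25 kb from the promoter viewpoint. Distances given here therefore differ from the labelled offsets. Bins of 10 kb needed 5 positions, empty means under 1e-09, and the decay was an isotonic fit over both sides (scikit-learn 1.9.0), tested on simulated data. Because beyond the reach of the shorter side that decay follows the desert itself, comparisons used relative signal and O/E was an alternative. Named positions were the -470 kb viewpoint, in each library the 3 highest O/E peaks at most (above 1, spaced by 20 kb or more, signal in the top 25% of the segment), the bin of largest difference in each direction and neighbouring genes. Alternatives were other windows, scaling, pseudocount, bins and decay. The interval and lists were chosen with earlier results of these data known. Sequence of the segment itself is not analysed here.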

Additional observations from a re-analysis of the deposited data

Results flagged for a closer look

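Over the whole segment the difference between thymus and ES cells had opposite signs from the 2 viewpoints. It was 1.38 on the log2 scale from the Satb1 promoter and -0.33 from the -470 kb site, or 0.06 and -0.36 with O/E. Of 31 bins measured from both, 20 were higher in thymus from the promoter and higher in ES cells from the -470 kb site, 10 were higher in thymus from both and 1 was higher in ES cells from both. In 0 bins were the opposite differences both 2-fold or more. From the promoter, many bins held flat values in both tissues, such as 0.230 in thymus against 0.101 in ES cells at 52.54 Mb. The sign there cannot be told apart from a difference in library scale, so the count of 20 is only a description. The difference between the viewpoints was not tested, since each value rests on 1 library per tissue.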

How the results depend on the processing

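No paired analysis was possible because each group held 1 library. Values were taken as moved when they shifted by more than the template pair's SD of 0.82, and counts when they shifted by more than 1.5 times. No segment difference past 2-fold turned sign in any alternative run. Those of thymus minus brain (-0.22) and -6 kb minus promoter (0.64), both under 2-fold, became 0.02 and -0.03 with O/E. Of 42 alternatives for the segment's log2 differences 40 stayed within that limit, and all 28 for its relative signal. With O/E, the thymus minus ES difference from the promoter was 0.057 and ES minus brain -0.041; in the promoter libraries the curve is fitted at these distances to the segment itself. O/E also gave -0.13 for the -470 kb site in the ES promoter library, against -2.30 as log2 relative signal. The 20 kb window lowered log2 O/E at the highest maximum from 2.36 to 1.45 in the promoter library of thymus and from 1.14 to 0.000434 in that of ES cells. Counts of 2-fold bins moved as follows. For thymus minus ES from the promoter, the higher bins were 2 with O/E and 18 with the pseudocount of 2%, and the lower bins 0 with windows of 10 or 20 kb or bins of 20 kb and 4 with O/E. For thymus minus brain the higher bins were 1 with the 2 kb window or O/E and 0 with windows of 10 or 20 kb or the shared scale, and the lower bins 5 with O/E. For ES minus brain O/E gave 1 higher and 0 lower. From the -470 kb site the higher bins were 1 with the 20 kb window or the shared scale and 0 with O/E. For +1.5 kb minus promoter the higher bins were 10 with the 10 kb window, and the lower bins 0 with the 20 kb window, the shared scale or bins of 20 kb. For -6 kb minus promoter O/E gave 2 higher and 1 lower. The causes were not tested. Of 49 alternatives for the contrast of the shared site, all added after the data were seen, 1 shifted by more than that SD, to 1.62 with O/E at +1.5 kb; the difference between thymus and brain was 0.96 instead of 1.65 with the 20 kb window; in the -470 kb library of ES cells the contrast lay between -0.01 and 0.16 and took both signs. Depth is unknown, so no counting error could be given.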

Other observations

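Across the 10 kb bins of the segment, the thymus libraries ranked it more alike than most other pairs. Spearman's rank correlation coefficient of relative signal was 0.912 between the -6 kb and -470 kb libraries of thymus (31 bins), which share both enzymes and lie 443.25 kb apart. It was 0.797 between the promoter and +1.5 kb and 0.821 between the promoter and -6 kb in thymus (33 bins), and 0.806 between thymus and ES cells from the -470 kb site (31 bins). The promoter libraries of thymus and ES cells had 0.447 and those of thymus and brain 0.505. The coefficient was 0.370 between the promoter in brain and +1.5 kb in thymus and 0.401 between the promoter and -470 kb in ES cells. It was 0.501 between the promoter in thymus and -470 kb in ES cells. Other pairs across tissues were higher. The promoter in brain had 0.713 with -470 kb and 0.701 with -6 kb in thymus. The -6 kb library had 0.736 with -470 kb in ES cells. These come close to 0.750 (promoter and -470 kb) and 0.766 (+1.5 kb and -470 kb) within thymus. All coefficients are descriptions over bins of the same profile, which share the fall of signal with distance and, in the ES promoter library, a floor.

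Empty positions recurred across libraries. In all 7, 9 positions were empty, at 52.516 to 52.519, 52.613 to 52.615 and 52.684 to 52.685 Mb. The 3 libraries made with DpnII and Csp6I shared 14 empty positions, among them 52.565 to 52.566 Mb, which none of the promoter and +1.5 kb libraries had empty.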
